A study of Homo sapiens with 6 samples.

Results

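The transcripts examined here were those of amino acid transporters of the solute carrier (SLC) families in WM266.4 cells, an established human melanoma line. Members were the protein-coding genes of the deposited table whose symbol is SLC1A, SLC6A, SLC7A, SLC36A, SLC38A or SLC43A followed by digits, together with SLC3A1 and SLC3A2. The rule found 40 of the 24526 genes of the table, SLC3A2 among them, while SLC3A1 was not analysed here. Of the 40, 32 passed the filter on low counts and were tested, and 8 did not. Cultures received either an siRNA against RIPK4 (RIPK4.si, n = 3) or a negative control siRNA (neg.si, n = 3), and their poly(A) RNA was sequenced 48 h later. By pairing with a transcript, an siRNA leads the cell to degrade it. RIPK4 is a serine/threonine kinase best known for its part in epidermal differentiation. The groups shared the cell line, the medium and the time point, and knockdown rested on a single RIPK4 siRNA product in a single cell line. Values for a group are given throughout in the order of replicates 1, 2 and 3.

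Amino acid transporters carry amino acids across the plasma membrane or the membranes of organelles. Some exchange one amino acid for another, some are driven by sodium or proton gradients, and some let their substrate run down its own gradient. Members of the SLC7 light chain group work only as heteromers, in which the light chain does the transport and a heavy chain, SLC3A2 or SLC3A1, brings it to the cell surface. Uptake of leucine and glutamine feeds the mTORC1 kinase complex, and shortage of amino acids raises translation of the transcription factor ATF4, whose targets include several of these transporters. SLC7A5, SLC1A5 and SLC7A11 are widely studied in cancer, melanoma included.

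Counts on genes summed to between 28464057 and 31688095 in a library, so that depth was about equal. RIPK4 itself (chr21:41739369-41767089, GRCh38) stood at 85.8, 76.5 and 54.7 CPM (counts scaled to a common normalized library size) in neg.si and at 19.9, 16.7 and 21.5 CPM in RIPK4.si. Its level fell by 1.90 on the log2 scale (SE 0.203, adjusted p = 0.0102), and the groups did not overlap. With 1 library left out the log2 fold change was -2.06 to -1.74, and the adjusted p was 0.0622 to 0.106 when neg.si replicate 2 or any RIPK4.si library was dropped. All 8 melanocyte lineage markers looked up had a row in the table, with a summed level of 3573 to 4012 CPM in neg.si and 2635 to 2759 CPM in RIPK4.si. Markers of fibroblasts summed to 0.441 to 1.32 CPM in neg.si and 1.29 to 2.05 CPM in RIPK4.si, those of leukocytes to 1.498 to 2.62 CPM and 1.59 to 1.77 CPM, and the endothelial marker PECAM1 to 0.252 to 0.932 CPM and 0.750 to 1.07 CPM. Keratinocyte markers summed to 10.16 to 11.62 CPM in neg.si and 11.83 to 16.09 CPM in RIPK4.si, nearly all of it KRT10, with KRT5 and KRT14 near 0. Their part in the results on transporters was not tested.

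None of the 32 transporter genes passed edgeR's quasi-likelihood test at an adjusted p-value under 0.05, against 125 of all 16297 genes tested, or 0.767%. At an unadjusted p-value under 0.05 there were 5 transporters, or 15.62%, against 10.8% of all genes. All 5 were higher in RIPK4.si, where 4.85% of all genes were higher at that threshold and 6% lower. These 5 were SLC43A1, SLC6A6, SLC38A11, SLC7A5 and SLC38A7. DESeq2 called 1 transporter, SLC43A1, against 2.78% of all genes. With a correction for the GC content of each transcript, described further on, edgeR called SLC43A1 and SLC38A11, against 3.27% of all genes. Neither passed once replicate number was added to that model (edgeR adjusted p = 0.0589 and 0.0755). The log2 fold change of RIPK4.si over neg.si was above 0 for 21 transporters and below 0 for 11, with a median of 0.15 beside -0.02 over all genes tested. It lay between -0.76 and 0.81. With 1 library left out, 8 of the 32 changed sign, and these were SLC1A1, SLC1A2, SLC1A4, SLC36A1, SLC36A4, SLC38A10, SLC38A3 and SLC7A2. For 20 of the 32 the whole 95% confidence interval lay within a log2 fold change of 1 in either direction. It did so for 11501 of all 16297 genes tested, a larger share. Levels of 6 transporters, those 5 and SLC7A8, were higher in every RIPK4.si library than in any neg.si library, beside 8.23% of all genes. SLC43A3 alone was lower in every one, beside 9.4%. Since the RNA came from whole cultures, a change in the number of cells that express a gene and a change in RNA per cell cannot be told apart.

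**Figure D1:**
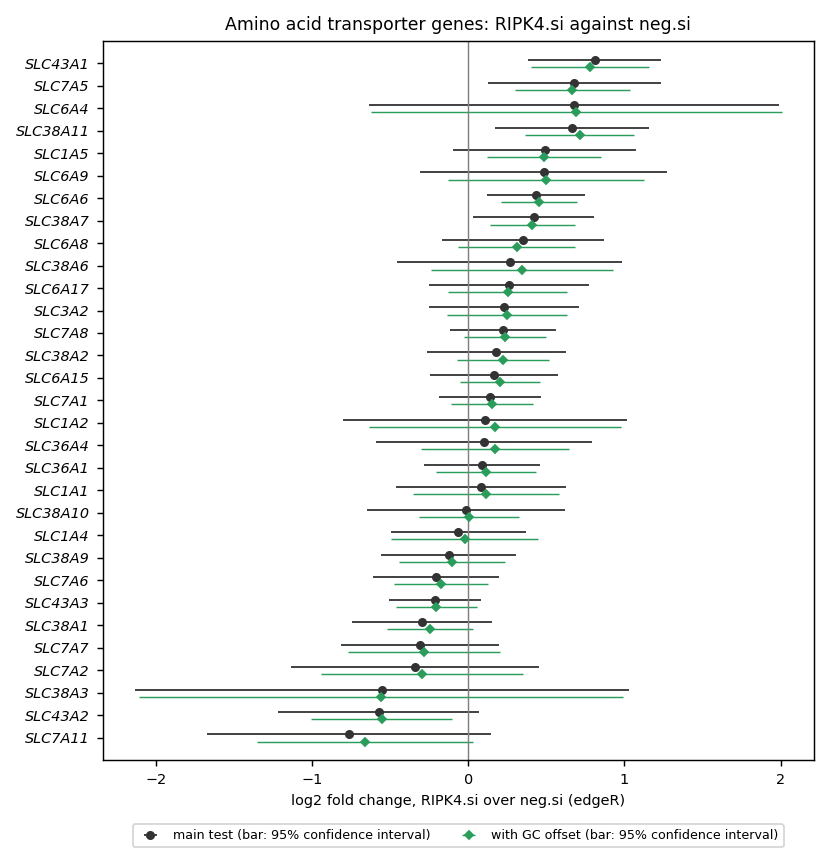
Log2 fold change of RIPK4.si over neg.si for 31 of the 32 transporter genes tested (horizontal axis), with bars for the 95% confidence interval, from the main edgeR test (black circles) and from the same test with an offset for GC content (green diamonds). Estimates run from -0.76 for SLC7A11 to 0.81 for SLC43A1, and the offset shortens most bars while moving the points little.

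To compare levels between genes, CPM were divided by the length of all annotated exons of the gene in kilobases (RPKM). In neg.si the highest mean levels were 49.0 ± 0.695 RPKM (SD, n = 3) for SLC43A3, a carrier best known for purine nucleobases, and 47.8 ± 7.38 RPKM for SLC1A4, an exchanger of alanine, serine and cysteine. SLC1A5, the glutamine exchanger, followed at 38.4 ± 12.04 RPKM and SLC7A5, the leucine transporter also called LAT1, at 34.9 ± 9.54 RPKM. SLC6A8, the creatine transporter, stood at 30.3 ± 7.25 RPKM, SLC7A1, which carries arginine and lysine, at 22.9 ± 2.18 RPKM and the heavy chain SLC3A2 at 19.9 ± 5.06 RPKM. Neighbours in this order differed by less than the larger of their SDs, except for SLC7A1 against SLC6A8. The 6 highest genes held between 63.5% and 69.7% of the summed RPKM of all transporters in the neg.si libraries and between 66.6% and 71.2% in the RIPK4.si libraries. In RIPK4.si the first places by mean were SLC7A5 at 55.9 RPKM, SLC1A5 at 53.9 RPKM, SLC1A4 at 45.8 RPKM and SLC43A3 at 42.3 RPKM. The lowest gene tested was SLC1A2, a glutamate transporter of glia, at 0.0487 RPKM in neg.si. The order depended on the length used: by the longest transcript, SLC3A2 stood at 44.7 RPKM in neg.si and took rank 3 in place of rank 7.

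**Figure D2:**
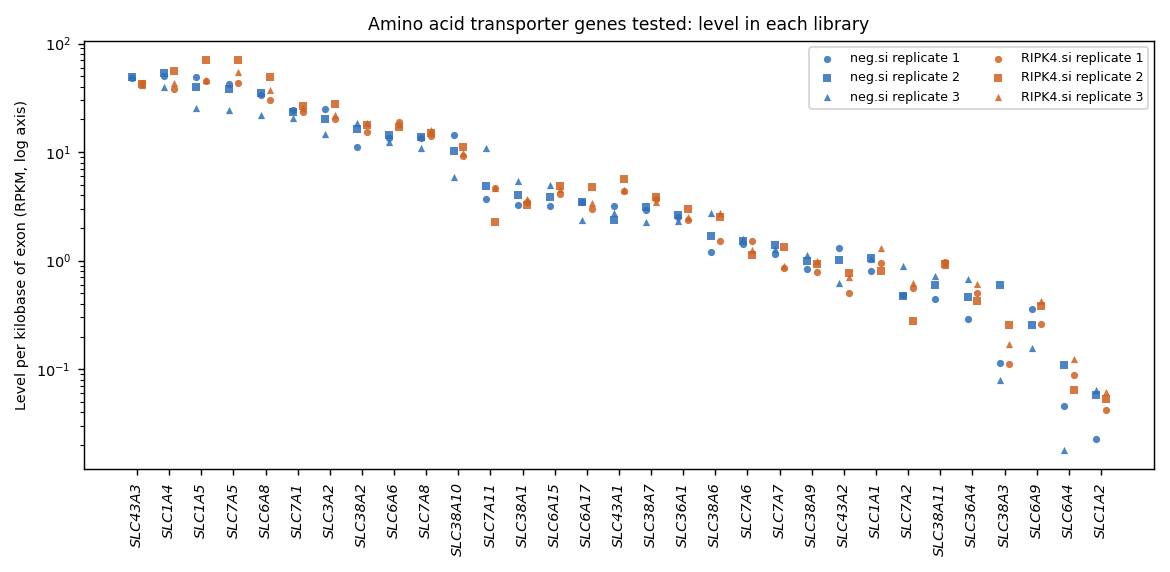
Level per kilobase of exon (RPKM, log axis) of 31 of the 32 transporter genes tested in each of the 6 libraries, ordered by their mean in neg.si. Blue points are neg.si and orange points RIPK4.si, with a marker shape for each replicate number. Levels run from about 49.0 RPKM for SLC43A3 down to 0.0487 RPKM for SLC1A2 in neg.si.

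The SLC43 family holds 2 facilitators of large neutral amino acids, SLC43A1 and SLC43A2, and SLC43A3. These 3 had log2 fold changes on both sides of 0. SLC43A1 (chr11:57484534-57515780), a leucine facilitator also called LAT3, had 11.2, 8.39 and 9.70 CPM in neg.si and 15.4, 19.97 and 15.9 CPM in RIPK4.si. Every RIPK4.si library lay above every neg.si library. The mean was 1.75 times as high, a log2 fold change of 0.81 (SE 0.189, 95% interval 0.38 to 1.23), with an adjusted p of 0.108 by edgeR, 0.0125 by DESeq2 and 0.0419 by edgeR with the GC offset. SLC43A2 (chr17:1569267-1628886), the related facilitator LAT4, had 13.98, 10.8 and 6.61 CPM in neg.si and 5.35, 8.24 and 7.49 CPM in RIPK4.si. Its groups overlapped through the low neg.si replicate 3. The log2 fold change was -0.57 (SE 0.287, interval -1.22 to 0.07, adjusted p = 0.534), and with 1 library left out it ranged from -0.29 without neg.si replicate 1 (adjusted p = 0.665) to -0.82 without neg.si replicate 3 (adjusted p = 0.101). SLC43A3 (chr11:57406954-57427580) had 217.8, 221.7 and 224.0 CPM in neg.si and 195.1, 190.0 and 188.2 CPM in RIPK4.si. It lay lower in every RIPK4.si library and had the smallest spread between neg.si libraries of all 32 (coefficient of variation 1.42%). The difference did not pass the test, with a log2 fold change of -0.21 (SE 0.131, interval -0.51 to 0.08, adjusted p = 0.669). SLC43A3 shares 29.86% of its exonic bases with an annotated readthrough gene on the same strand, so that its counts may leave out read pairs that matched both.

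Heteromeric transporters were represented by SLC3A2 and 5 light chains that passed the filter, of which 2 had a log2 fold change above 0 and 3 below. SLC3A2 (chr11:62856102-62888875), the heavy chain, had 158.4, 129.0 and 93.8 CPM in neg.si and 129.0, 178.1 and 139.6 CPM in RIPK4.si. The groups overlapped, and the log2 fold change was 0.23 (SE 0.214, interval -0.25 to 0.71, adjusted p = 0.824). With 1 library left out it ranged from 0.06 without neg.si replicate 3 to 0.44 without neg.si replicate 1, and it was 0.09 without RIPK4.si replicate 2. SLC7A5 (chr16:87830023-87869507) had 203.0, 180.2 and 115.3 CPM in neg.si and 204.6, 334.3 and 259.5 CPM in RIPK4.si. The groups did not overlap, though RIPK4.si replicate 1 and neg.si replicate 1 were almost level. The mean was 1.602 times as high, a log2 fold change of 0.68 (SE 0.246, interval 0.13 to 1.23, unadjusted p = 0.0213, adjusted p = 0.328 by edgeR and 0.0636 with the GC offset), and it was 0.48 without neg.si replicate 3. SLC7A8, a second light chain for neutral amino acids, had 81.1, 83.1 and 66.0 CPM in neg.si and 84.1, 89.7 and 94.8 CPM in RIPK4.si, which did not overlap either (log2 fold change 0.22, adjusted p = 0.71, and 0.13 when neg.si replicate 3 was dropped).

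SLC7A11 (chr4:138164097-138242349), the cystine and glutamate exchanger xCT, had the lowest log2 fold change of the transporters and one of the widest spreads. It had 36.04, 47.5 and 105.6 CPM in neg.si and 44.7, 21.8 and 44.8 CPM in RIPK4.si, so that the groups overlapped and neg.si replicate 3 stood apart. The log2 fold change was -0.76 (SE 0.404, interval -1.67 to 0.15, adjusted p = 0.57), and with 1 library left out it ranged from -1.02 without neg.si replicate 1 (adjusted p = 0.25) to -0.17 without neg.si replicate 3 (adjusted p = 0.834). An antisense gene, SLC7A11-AS1, shares 8.97% of its exonic bases and had 49 counts over the 6 libraries, and the counting ignored strand. SLC7A6 and SLC7A7, the light chains that exchange cationic for neutral amino acids, had log2 fold changes of -0.20 and -0.31, and in both genes the groups overlapped. With 1 library left out these ranged from -0.32 to -0.10 and from -0.53 to -0.18. For SLC7A6, 44.44% of the exonic bases overlap SLC7A6OS on the opposite strand, so that its level is uncertain.

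Summed over the 5 light chains, the level was 62.4, 59.5 and 49.0 RPKM in neg.si and 64.0, 89.9 and 77.1 RPKM in RIPK4.si. The group means were 57.0 ± 7.06 and 77.0 ± 12.9 RPKM (SD, n = 3), without overlap. SLC7A5 made up 68.2%, 63.5% and 49.4% of that sum in neg.si and 67.1%, 78.1% and 70.7% in RIPK4.si. SLC7A11 made up 22.3% in neg.si replicate 3 and between 2.52% and 8.27% in the other 5 libraries.

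**Figure D3:**
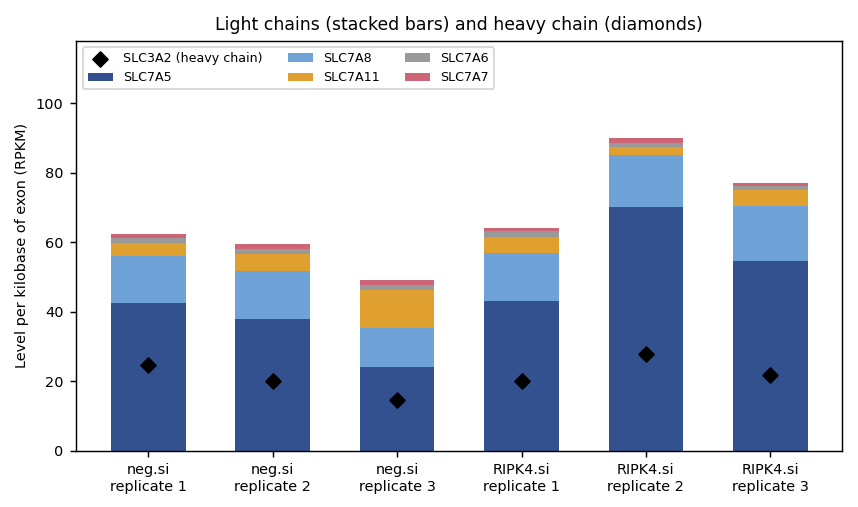
Level per kilobase of exon (RPKM) of the 5 light chains, stacked, and of the heavy chain SLC3A2 (black diamonds) in each of the 6 libraries. SLC7A5 is the largest block in each bar, and SLC7A11 is largest in neg.si replicate 3, where it makes up 22.3% of the light chain sum.

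Ratios within a library were computed for 5 pairs, which were chosen after their values had been seen and are given as a description. SLC7A5 over SLC3A2 was 1.72, 1.87 and 1.65 in neg.si and 2.13, 2.52 and 2.49 in RIPK4.si, or 1.75 ± 0.115 against 2.38 ± 0.218 (SD, n = 3). SLC43A1 over SLC43A2 was 2.40, 2.33 and 4.41 in neg.si and 8.64, 7.29 and 6.39 in RIPK4.si, or 3.05 ± 1.18 against 7.44 ± 1.13. SLC1A5 over SLC1A4 was 0.984, 0.747 and 0.651 in neg.si and 1.19, 1.25 and 1.08 in RIPK4.si, or 0.794 ± 0.171 against 1.17 ± 0.0863. In these 3 pairs the groups did not overlap, and an exact 2-sided permutation test gave p = 0.1 for each (0.167 adjusted over the 5 pairs). The sum of the light chains over SLC3A2 and SLC43A1 over SLC7A5 overlapped between groups (p = 0.3 and 0.8 in the same permutation test). Because the pairs were chosen after their values had been seen, none of these p-values counts as evidence. GC content was 61.2% for SLC7A5 and 53.8% for SLC3A2, 58.0% for SLC43A1 and 58.5% for SLC43A2, and 61.3% for SLC1A5 and 46.5% for SLC1A4.

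**Figure D4:**
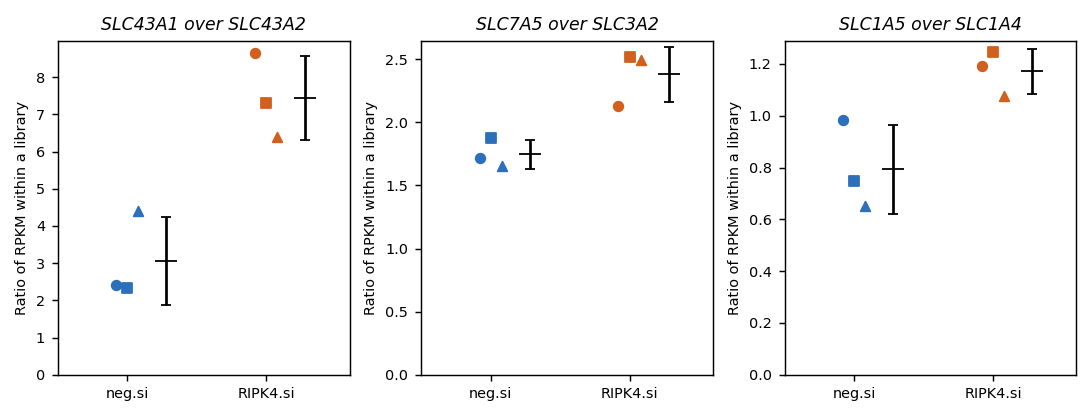
Ratio of RPKM within a library for SLC43A1 over SLC43A2, SLC7A5 over SLC3A2 and SLC1A5 over SLC1A4. Points are the 3 libraries of each group (circle, square and triangle for replicates 1, 2 and 3), and bars give the mean ± SD. In each panel all 3 RIPK4.si points lie above all 3 neg.si points.

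Neutral exchangers of the SLC1 family were abundant but did not pass the test. SLC1A5 (chr19:46774883-46788594) had 165.3, 133.2 and 85.6 CPM in neg.si and 151.6, 232.5 and 154.8 CPM in RIPK4.si. The groups overlapped, and the log2 fold change was 0.49 (SE 0.259, interval -0.10 to 1.07, adjusted p = 0.573). Leaving out neg.si replicate 3 or RIPK4.si replicate 2 gave 0.27, and leaving out neg.si replicate 1 gave 0.73. SLC1A4 (chr2:64988477-65023865) had 350.0, 371.4 and 273.9 CPM in neg.si and 265.3, 388.4 and 299.2 CPM in RIPK4.si. Its log2 fold change of -0.06 (SE 0.191, interval -0.49 to 0.37, adjusted p = 0.967) turned to 0.06 without RIPK4.si replicate 1 and to 0.04 without neg.si replicate 2.

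Sodium-coupled neutral transporters of the SLC38 family numbered 8 after the filter, 4 with a log2 fold change above 0 and 4 below (median 0.08). SLC38A11 (chr2:164896186-164955525), a member of low abundance, had 3.29, 4.43 and 5.35 CPM in neg.si and 7.16, 6.82 and 6.75 CPM in RIPK4.si. The groups did not overlap and the RIPK4.si libraries were close to one another. The mean was 1.59 times as high, a log2 fold change of 0.66 (SE 0.218, interval 0.17 to 1.16), with an adjusted p of 0.267 by edgeR, 0.148 by DESeq2 and 0.0442 by edgeR with the GC offset. SLC38A7 (chr16:58665109-58684770), which exports glutamine from lysosomes, had 19.4, 20.6 and 14.98 CPM in neg.si and 24.4, 25.9 and 23.3 CPM in RIPK4.si. These groups did not overlap, with a log2 fold change of 0.42 (SE 0.172, interval 0.03 to 0.81, unadjusted p = 0.0369, adjusted p = 0.407). The glutamine transporters SLC38A1 and SLC38A2 overlapped between groups, at log2 fold changes of -0.30 (-0.44 to -0.075 with 1 library left out) and 0.18 (0.017 to 0.34). SLC38A9, the lysosomal arginine sensor of mTORC1, overlapped too, at -0.12 (-0.21 to -0.017 with 1 library left out). SLC38A3 had an estimate of -0.55 on 0.315 to 2.36 CPM in neg.si, which ranged from -0.98 to 0.89 with 1 library left out.

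SLC6 members carry taurine, creatine, neurotransmitters and some amino acids with sodium and chloride, and those described here had log2 fold changes above 0, of 0.17 to 0.68. SLC6A6 (chr3:14402576-14489349), the taurine transporter, had 112.1, 117.7 and 102.4 CPM in neg.si and 157.1, 140.7 and 150.6 CPM in RIPK4.si. The groups did not overlap, and spread within each was small. Its log2 fold change was 0.43 (SE 0.139, interval 0.12 to 0.75, unadjusted p = 0.012), with an adjusted p of 0.251 by edgeR, 0.16 by DESeq2 and 0.0601 with the GC offset. SLC6A8 (chrX:153687926-153696588) had 192.0, 201.1 and 125.4 CPM in neg.si and 172.1, 277.2 and 211.6 CPM in RIPK4.si. These overlapped, with a log2 fold change of 0.35 (SE 0.231, interval -0.17 to 0.87, adjusted p = 0.701). It was 0.16 when RIPK4.si replicate 2 was left out and 0.17 when neg.si replicate 3 was. SLC6A9, a glycine transporter, SLC6A15 and SLC6A17, which carry neutral amino acids, and SLC6A4, the serotonin transporter, overlapped between groups. SLC6A4 had the highest estimate of these, 0.68, with an interval of -0.63 to 1.99 on 0.126 to 0.868 CPM in the 6 libraries. With 1 library left out the estimate of SLC6A4 ranged from 0.25 to 1.52, and that of SLC6A15, 0.17, from 0.048 to 0.35.

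None of the cationic, glutamate and proton-coupled transporters had an unadjusted p under 0.05. SLC7A1 (chr13:29509414-29595688) had 189.0, 181.2 and 156.8 CPM in neg.si and 180.1, 206.2 and 194.0 CPM in RIPK4.si. The groups overlapped, and the log2 fold change was 0.14 (SE 0.145, interval -0.19 to 0.47, adjusted p = 0.855), or 0.07 when neg.si replicate 3 was dropped. SLC7A2, a second cationic transporter, had a log2 fold change of -0.34, with an interval of -1.14 to 0.45. The glutamate transporters SLC1A1 and SLC1A2 had 0.08 (interval -0.47 to 0.63) and 0.11 (-0.80 to 1.01). The proton-coupled SLC36A1 and SLC36A4 had 0.09 (-0.28 to 0.46) and 0.10 (-0.59 to 0.80). The 8 members that failed the filter had at most 8 counts in any library. They were SLC1A3 and SLC1A7, of the glutamate transporters, SLC6A12, SLC6A13, SLC6A14 and SLC6A3, of which the last carries dopamine, and SLC7A4 and SLC7A14. SLC1A3 had 8, 5 and 3 counts in neg.si and 7, 7 and 7 counts in RIPK4.si. No difference was detectable in these genes at this depth.

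Libraries differed among themselves along GC content, the share of G and C bases in a transcript. Across the 32 transporters the log2 ratio of neg.si replicate 3 over neg.si replicate 1 had a Pearson correlation of -0.893 and a Spearman correlation of -0.889 with GC content of the longest transcript, beside -0.65 and -0.653 over 16239 genes. Points were genes of the same libraries and were not independent replicates. Of the 10 transporters with GC content over 55%, among them SLC7A5, SLC1A5, SLC6A8 and SLC38A10, neg.si replicate 3 was the lowest neg.si library in 9 and RIPK4.si replicate 2 the highest RIPK4.si library in 9. Of the 11 with GC content under 45%, among them SLC7A11 and SLC38A11, neg.si replicate 3 was the highest neg.si library in 10. RIPK4.si replicate 2 was the lowest RIPK4.si library in only 5 of these 11. The log2 ratio of RIPK4.si replicate 2 over its group's other libraries had a Pearson correlation of 0.596 with GC content, beside 0.19 over all genes. SLC38A10, at 63.9% GC, had 114.4, 81.7 and 46.1 CPM in neg.si and 73.1, 88.8 and 77.7 CPM in RIPK4.si. The main log2 fold change had correlations of 0.252 (Pearson) and 0.273 (Spearman) with GC content across the 32, beside 0.0273 and 0.057 over all genes. The offset for GC content left the log2 fold changes of SLC43A1 (0.78), SLC38A11 (0.71), SLC7A5 (0.67), SLC6A6 (0.45) and SLC1A5 (0.49) close to the values without it. The median over the 32 was 0.19 with the offset, beside -0.0023 over all genes.

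**Figure D5:**
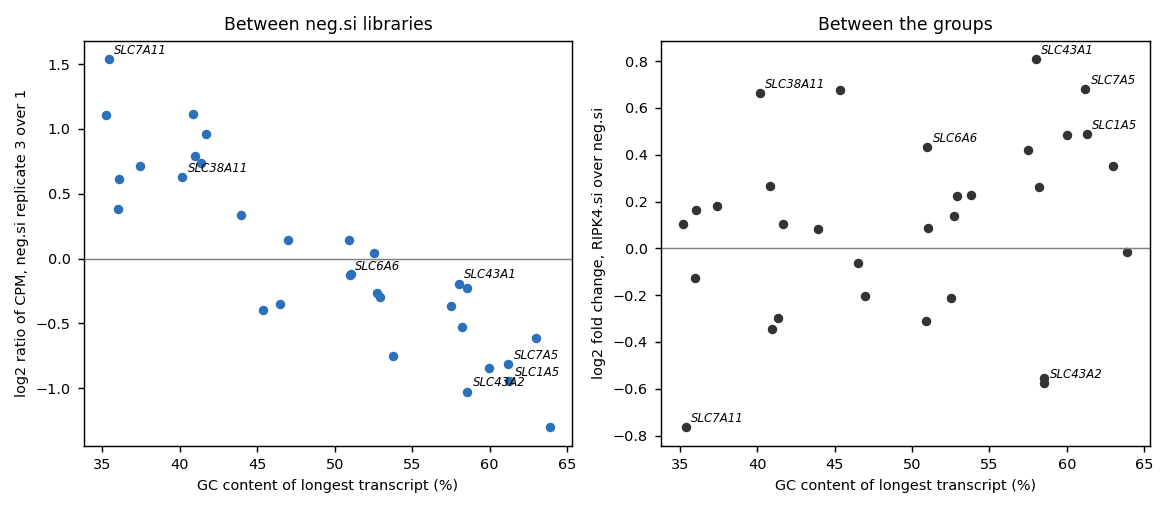
GC content of the longest transcript (%) of 31 of the 32 transporter genes tested against the log2 ratio of CPM of neg.si replicate 3 over replicate 1 (left) and against the log2 fold change of RIPK4.si over neg.si (right). The left panel falls steeply from SLC7A11 to the GC-rich SLC7A5 and SLC1A5 (Pearson correlation -0.893 over all 32), and the right panel shows a wide scatter (0.252 over all 32).

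A list of 49 genes, called response genes here, was looked up in the same test, and all 49 were tested. It held genes that sense amino acids or respond to their shortage. It also held all EIF2AK kinases, enzymes of amino acid metabolism, and GCLC and GCLM of glutathione synthesis. None passed at an adjusted p under 0.05. At an unadjusted p under 0.05 there were 10, or 20.41% against the 10.8% of all genes, 9 of them higher in RIPK4.si and 1, CASTOR2, lower. The 9 were ALDH18A1, RRAGD, GPT2, SHMT2, MTHFD2, GCLC, PYCR1, GCLM and ASNS. Over the whole list 33 log2 fold changes were above 0 and 16 below, with a median of 0.06 beside -0.02 over all genes. DESeq2 called none, beside 2.78% of all genes, and edgeR with the GC offset called 1, PYCR1, beside 3.27%. PYCR1 did not pass once replicate number was added to that model (edgeR adjusted p = 0.0596). ALDH18A1, the first enzyme of proline synthesis, had 97.6, 97.8 and 84.2 CPM in neg.si and 129.1, 153.1 and 127.8 CPM in RIPK4.si, without overlap (log2 fold change 0.55, SE 0.149, adjusted p = 0.161). PYCR1, the last enzyme of that route, had 29.1, 18.6 and 14.2 CPM in neg.si and 28.3, 36.9 and 30.6 CPM in RIPK4.si, where the groups overlapped at neg.si replicate 1 (log2 fold change 0.63, SE 0.256, adjusted p = 0.394 by edgeR and 0.0394 with the GC offset). RRAGD, a Rag GTPase that brings mTORC1 to the lysosome, had 87.7, 93.9 and 90.001 CPM in neg.si and 120.3, 158.2 and 126.4 CPM in RIPK4.si, without overlap (log2 fold change 0.58, SE 0.154, adjusted p = 0.158 by edgeR and 0.057 by DESeq2). GPT2, a mitochondrial alanine aminotransferase, had 17.1, 14.7 and 11.6 CPM in neg.si and 18.3, 24.9 and 21.3 CPM in RIPK4.si, also without overlap (log2 fold change 0.57, SE 0.199, adjusted p = 0.308). The transcript of ATF4 itself, which is regulated mainly in its translation, had 205.1, 183.1 and 175.1 CPM in neg.si and 226.2, 184.3 and 170.5 CPM in RIPK4.si. Its log2 fold change was 0.04 (interval -0.31 to 0.40), and -0.071 to 0.13 with 1 library left out. ASNS, asparagine synthetase, had 17, 10 and 16 counts in neg.si and 23, 26 and 24 counts in RIPK4.si (log2 fold change 0.82, SE 0.352, adjusted p = 0.436), few for a library of this depth. ATF4, ASNS, CASTOR2, SHMT2, MTHFD2, GCLC and GCLM were singled out after their values had been seen.

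Of 21 other amino acid carriers, mainly of lysosomes, vesicles and mitochondria, 19 had a row in the table and 16 were tested. None passed edgeR's test, and 1, SLC17A5, passed with DESeq2 and with the GC offset (0.767%, 2.78% and 3.27% of all genes in these tests). It had the only unadjusted p under 0.05, 6.25% of the 16 beside 10.8% of all genes. SLC17A5 (chr6:73593379-73653992), sialin, exports sialic acid from lysosomes. It had 24.8, 31.2 and 32.7 CPM in neg.si and 44.4, 52.3 and 51.7 CPM in RIPK4.si, or 29.5 ± 4.18 against 49.5 ± 4.38 CPM (SD, n = 3), without overlap. SLC17A5 had a log2 fold change of 0.74 (SE 0.166), with an adjusted p of 0.0902 by edgeR, 0.00648 by DESeq2 and 0.0179 by edgeR with the GC offset. With 1 library left out, edgeR's adjusted p was 0.0355 without neg.si replicate 3 and between 0.135 and 0.473 without any of the others. SLC17A7, a vesicular glutamate transporter, and SLC25A39, a mitochondrial glutathione carrier, came next by p-value, at log2 fold changes of 0.35 (adjusted p = 0.668) and 0.41 (adjusted p = 0.678). With 1 library left out these ranged from 0.22 to 0.51 and from 0.16 to 0.70, both lowest when neg.si replicate 3 was dropped.

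Promoters were searched for 3 short motifs from 250 bases before to 50 bases after the gene start, in RefSeq sequences of GRCh38.p14 that covered 24 of the 32 transporters tested. The RefSeq start can lie inside the gene bounds given above, which span all annotated transcripts, as it does for SLC3A2. The C/EBP-ATF response element, through which ATF4 acts on genes of the amino acid response, was searched as TGATGNAA on both strands. It was found in 3 of the 24, or 12.5%, beside 3.67% of 27305 promoters and 4 of 37 response genes. The matches are shown with the motif in capitals, to mark which of the 24 promoters searched held it. They lie in SLC38A1 (chr12:46266503-46266530, minus strand), SLC7A1 (chr13:29595664-29595691, minus strand) and SLC3A2 (chr11:62881721-62881748, plus strand, motif on the opposite strand). ASNS (chr7:97872459-97872486, minus strand) is given for comparison.
SLC38A1: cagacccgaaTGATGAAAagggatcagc
SLC7A1: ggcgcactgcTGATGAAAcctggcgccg
SLC3A2: aatgtgcaggactccTTACATCAgctcc
ASNS: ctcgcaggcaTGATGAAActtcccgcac
The transporters with this motif had log2 fold changes of -0.30 (SLC38A1), 0.14 (SLC7A1) and 0.23 (SLC3A2), and all 3 overlapped between groups. The core of the antioxidant response element, TGACNNNGC, was found in 5 of 24 (20.8%), beside 13.6% of all promoters and 6 of 37 response genes (16.2%). Among these was SLC7A5 (chr16:87869492-87869519, minus strand), with the motif at the gene start.
SLC7A5: gcggggttccTGACGCAGCtgcgggcgg
The E-box CACGTG was found in 3 of 24 (12.5%), beside 7.43% of all promoters, and these were SLC38A7, SLC43A1 and SLC7A5. It was also found in 9 of 37 response genes (24.3%), of which only ALDH18A1 had an unadjusted p under 0.05. SLC6A6 had no promoter sequence in the table used, and neither did SLC7A11 or SLC43A3. A match of letters is a description of the sequence and does not show that a factor binds there.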

How the data were processed

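The 6 WM266.4 libraries, 3 neg.si and 3 RIPK4.si, were grouped by GEO's labels. The authors enriched poly(A) RNA and obtained paired reads on a BGISEQ-500. After adapter trimming in Cutadapt, they mapped the reads to GRCh38.p13 using TopHat, and HTSeq gave unstranded read pair counts for each gene. The deposited count values are whole numbers, not normalized, and were the only values used. The deposited signal values are counts that the authors scaled by DESeq2 size factors. The deposited fold (a ratio), log2 fold change with its standard error and p-value are the authors' own comparison, and were not used.

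The main test was the quasi-likelihood test of edgeR 4.0.16 (R 4.3.3) for condition, with no covariate. It used TMM normalization and ran over the 16297 genes that passed filterByExpr, with Benjamini-Hochberg adjustment. A gene was called at an adjusted p under 0.05. Standard errors were the log2 fold change divided by the square root of F, and 95% intervals used the test's degrees of freedom. Coordinates of genes were those of the deposited table. Exon lengths, overlaps and GC content came from GENCODE v44, in which 24416 of 24526 identifiers were found. The GC offset was a lowess (span 0.3) on GC content, added to the model. It was fitted in each library to log2 CPM (prior count 2) minus the gene's mean over all libraries.

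Genes named with values were those called by any of edgeR, DESeq2 or the GC offset, the 10 transporters with the smallest p, the 6 with the highest RPKM in neg.si, SLC3A2, and the 3 smallest p-values of each other list. Members and lists were chosen with earlier results of these data known. The alternatives were DESeq2 1.42.0, other normalizations and filters, a replicate block, the GC offset and each library left out. The test was checked on simulated data. The p-values of edgeR set the difference between groups against the spread between the 3 cultures of a group, estimated partly from other genes. Other transporters given with values, such as SLC7A8 and SLC38A10, were picked after their values had been seen. The values of 1 transporter tested are not reported here. SLC7A6OS was not counted as a member.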

Additional observations from a re-analysis of the deposited data

How the results depend on the processing

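The number of transporters called was 0 with edgeR, 1 with DESeq2 and 2 with the GC offset. It was 0 under DESeq2's size factors, upper-quartile normalization, no filter, at least 10 counts in every library, the replicate block with and without the GC offset, and each library left out. For the response list the count was 0, and 1 with the GC offset. For the other carriers it was 0, and 1 with DESeq2, the GC offset and the replicate block with the GC offset, and 0 to 1 with a library left out (1 without neg.si replicate 3). Over all genes, 125 were called by edgeR, 430 by DESeq2, 533 with the GC offset and 435 with the replicate block and the GC offset. Leaving out a library gave 0 to 295 calls, and dropping neg.si replicate 1, 2 or 3 gave 70, 0 and 295, and dropping RIPK4.si replicate 1, 2 or 3 gave 0, 4 and 0. The log2 fold change of RIPK4 ranged from -2.06 to -1.74, and its call was lost without neg.si replicate 2 (adjusted p = 0.106) and when RIPK4.si replicate 1, 2 or 3 was dropped (0.094, 0.0622 and 0.0725). That of SLC1A4 ranged from -0.22 to 0.06 and changed sign when neg.si replicate 2 (0.042) or RIPK4.si replicate 1 (0.063) was dropped. The cause of these differences was not tested. Whether replicate numbers pair the libraries is not known. Deviations of same-numbered libraries from their group means correlated at -0.242, 0.251 and 0.347, and not every library correlated best with its own number. Such deviations depend on one another within a group of 3 and also follow GC content, so that they cannot exclude a pairing. The replicate block alone gave 131 calls over all genes. Depth limits the 8 transporters that failed the filter on low counts, which the main test left out.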
